A study of Mus musculus with 15 samples.

Results

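The secreted Wnt antagonists described here are *Sfrp1*, *Sfrp2*, *Sfrp4*, *Sfrp5*, *Frzb*, *Wif1*, *Dkk2* and *Dkk3*, 8 of the 53465 genes in the table of normalized counts, and they were chosen by gene symbol with their differences between the populations already known. The values came from 15 RNA sequencing libraries, 5 for each of 3 populations labelled as an endothelial hierarchy: endovascular progenitors (EVP), transit amplifying cells (TA) and definitive differentiated cells (D). All cells were sorted from tumors grown from B16-F0, a mouse melanoma cell line, and collected on day 15 in CAG-GFP mice, which carry GFP in all of their cells. The study used mice of both sexes aged 8 to 14 weeks. The sorted cells were GFP+, negative for hematopoietic lineage markers and CD34+, and they were divided by the endothelial surface proteins CD31 and VEGFR2 into EVP (CD31lo VEGFR2lo), TA (CD31int VEGFR2lo) and D (CD31hi VEGFR2hi). GFP marked the host's cells and was not particular to endothelium in these mice. In other mice, where *Cdh5* expression allowed a lasting fluorescent label, the paper found most lineage-negative CD34+ tumor cells to be labelled. The paper took this as their endothelial origin. Whether same-numbered libraries or a library's cells came from 1 animal or several is not given in the sources used here, so errors below describe the spread between libraries.

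The labelled cell type was set beside 9 pan-endothelial markers, among them *Pecam1* (which encodes CD31), *Kdr* (which encodes VEGFR2), *Cdh5* and *Cldn5*. The cells were sorted by CD31 and VEGFR2, so the order of *Pecam1* and *Kdr* follows from the sort and is no check of the label. The summed level of all 9 markers, with *Pecam1* and *Kdr* among them, was 2216 to 4097 normalized counts in EVP. It was 5570 to 62704 in TA and 87882 to 143221 in D, and no library of EVP reached any of D. Every marker had reads in every library except *Erg* in EVP replicate 3. With limma at an adjusted p under 0.05, 8 of the 9 were higher in D than in EVP, all but *Tek*. Of all 25549 genes tested, 1907 were. Between EVP and TA, 7 were higher in TA, all but *Tek* and *Erg*, beside 495 of all genes tested. Both counts include *Pecam1* and *Kdr*. The sum of 10 fibroblast markers, which include *Pdgfra*, *Col1a1* and *Dcn*, ran the other way, with 844125 to 1501645 normalized counts in EVP, 192001 to 610205 in TA and 1029 to 4128 in D. The libraries held from 5394356 to 26513073 reads on genes, and 3 reads, taken as the limit of detection, equalled 1.81 to 10.5 normalized counts. Olfactory receptor genes, which these cells are not known to use, had reads for 2.89% to 98.3% of 1106 genes. The highest shares were in replicate 1 of all 3 populations. Replicates 2 and 3 had 61.8% and 14.5% in EVP, 57.8% and 71.0% in TA and 24.1% and 23.2% in D. In replicates 4 and 5 of all populations the share was 2.89% to 5.06%. The part of this background in the differences between populations was not tested.

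Wnt proteins are secreted signals that bind Frizzled receptors together with the coreceptors LRP5 and LRP6, and in the canonical branch this stabilizes β-catenin, which then acts with TCF factors on target genes. Secreted antagonists work outside the cell. The secreted Frizzled-related proteins, encoded by *Sfrp1*, *Sfrp2*, *Sfrp4*, *Sfrp5* and *Frzb*, carry a domain like that of Frizzled and bind Wnt proteins, as does the Wnt inhibitory factor encoded by *Wif1*, while Dickkopf proteins such as that of *Dkk2* bind LRP5 and LRP6. *Dkk3* encodes a divergent Dickkopf protein. In vessels, Wnt signals are known for roles in sprouting, vessel maturation and the blood-brain barrier.

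Promoter windows are shown for 3 genes whose levels differed most in kind, *Sfrp2* with its high level in EVP, *Dkk2* with its highest level in D, and *Sfrp5* with almost no reads. The sequences are the 250 bases before the RefSeq transcript start on the build GRCm38.p6, written 5′ to 3′ on the strand of the gene, and RefSeq windows were at hand for 5 of the 8 genes. Capitals mark matches, on either strand, to TATAAA, the GC box GGGCGG, or the TCF core letters CTTTGA and CTTTGT.
*Sfrp2*, chr3:83766071-83766320, plus strand: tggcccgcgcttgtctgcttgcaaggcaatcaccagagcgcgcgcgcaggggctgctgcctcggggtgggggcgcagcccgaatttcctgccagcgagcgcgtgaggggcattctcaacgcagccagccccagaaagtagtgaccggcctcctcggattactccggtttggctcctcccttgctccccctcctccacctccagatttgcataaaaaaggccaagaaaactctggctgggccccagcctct
*Dkk2*, chr3:132085042-132085291, plus strand: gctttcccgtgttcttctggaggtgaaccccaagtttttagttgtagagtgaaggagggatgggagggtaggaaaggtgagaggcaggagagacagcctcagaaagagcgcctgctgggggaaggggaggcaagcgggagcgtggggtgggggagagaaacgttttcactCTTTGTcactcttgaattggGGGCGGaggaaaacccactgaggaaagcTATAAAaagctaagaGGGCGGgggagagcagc
*Sfrp5*, chr19:42202253-42202502, minus strand: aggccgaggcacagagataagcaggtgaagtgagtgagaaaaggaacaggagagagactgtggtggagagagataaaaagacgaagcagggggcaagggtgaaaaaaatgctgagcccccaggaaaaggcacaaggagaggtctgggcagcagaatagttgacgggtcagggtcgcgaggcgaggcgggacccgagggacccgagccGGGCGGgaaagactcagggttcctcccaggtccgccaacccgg
The *Dkk2* window held TATAAA at 32 bases upstream of the start, CTTTGT at 80 bases and GGGCGG at 60 and 17 bases. The *Sfrp5* window held GGGCGG at 43 bases, and none of the letters searched for was in the *Sfrp2* window. Of 32851 promoters of this length, 12.4% held TATAAA, 13.8% CTTTGA, 16.5% CTTTGT and 32.7% GGGCGG, so such matches are common. The windows held 16 CG dinucleotides in *Sfrp2*, 13 in *Sfrp5* and 7 in *Dkk2*, beside a median of 6 over all promoters. These matches describe letters only, and no binding was measured in these cells.

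Per kilobase of exon, the antagonists had a different make-up in D than in EVP and TA. Their summed level was 6064, 16709, 7154, 10797 and 5442 normalized counts per kb in EVP replicates 1 to 5, 1758, 6211, 1600, 2614 and 3111 in TA, and 261, 269.7, 189, 309 and 379.9 in D. Every EVP and TA library lay above every D library, while EVP and TA overlapped. *Sfrp2* and *Sfrp4* together made up 86.0% to 94.1% of the sum in EVP and 50.2% to 88.2% in TA. In D they made up 0% to 15.6%, the highest share being that of D replicate 1, and *Dkk2* and *Dkk3* made up 73.9% to 97.6%. The leading gene was *Sfrp4* in EVP replicates 1 and 4 and *Sfrp2* in the other 3. In TA it was *Sfrp2* in replicates 1, 2 and 5, *Dkk3* in replicate 3 and *Sfrp4* in replicate 4, and in D it was *Dkk2* in all but replicate 3, where *Dkk3* led.

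**Figure D1:**
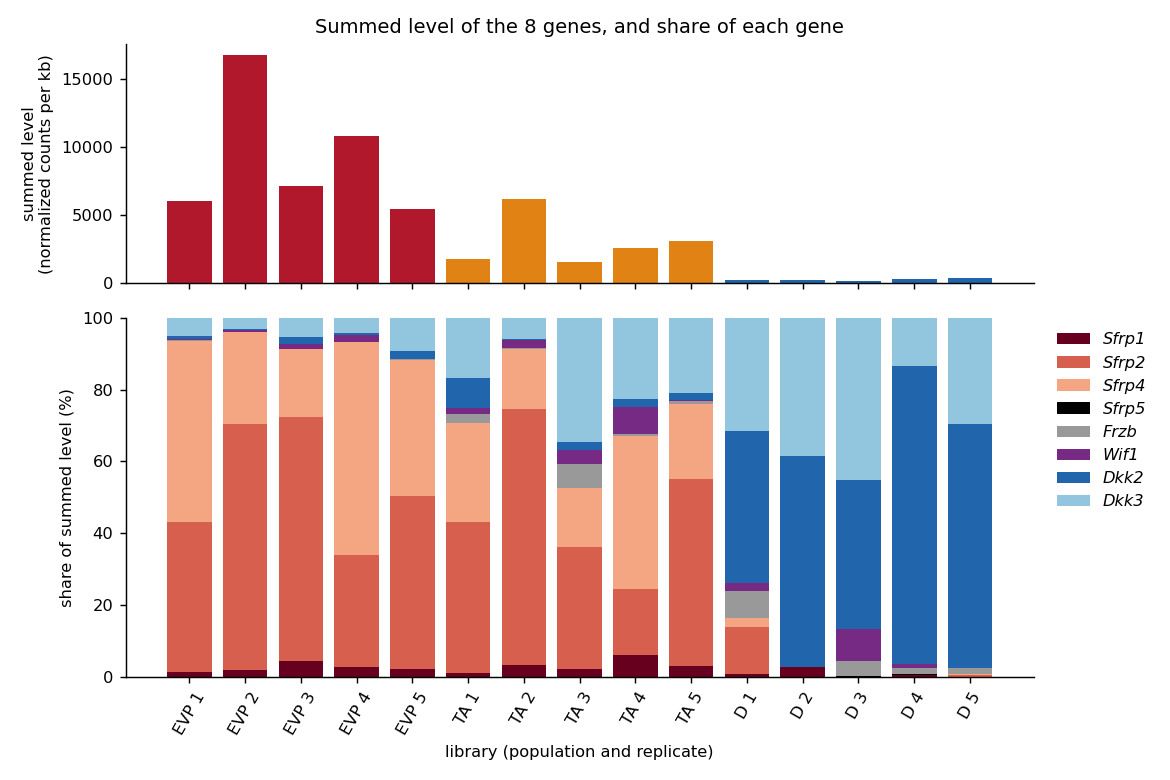
The upper panel plots the summed level of the 8 genes in each library, in normalized counts per kb of exon, and the lower panel the share of each gene in that sum, in percent. The sum lay between 5442 and 16709 in EVP and between 189 and 379.9 in D, and the shares of *Sfrp2* and *Sfrp4* gave way to those of *Dkk2* and *Dkk3* in D.

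In order of their mean level per kb in EVP, the genes were *Sfrp2* (4971 ± 3754, SD, n = 5), *Sfrp4* (3421 ± 1992), *Dkk3* (434 ± 92.2), *Sfrp1* (225 ± 117), *Dkk2* (84.4 ± 45.6), *Wif1* (84.1 ± 83.6), *Frzb* (13.9 ± 4.69) and *Sfrp5*. Of neighbours in that order, the libraries of *Sfrp4* lay wholly above those of *Dkk3*, and those of *Frzb* above those of *Sfrp5*. All other neighbours overlapped. In TA the order was *Sfrp2* (1565 ± 1673), *Sfrp4* (710.5 ± 362), *Dkk3* (491 ± 154), *Sfrp1* (100.3 ± 77.2), *Wif1* (88.1 ± 80.9), *Dkk2* (65.1 ± 48.6), *Frzb* (38.2 ± 42.1) and *Sfrp5*, and of neighbours *Dkk3* and *Sfrp1* alone did not overlap. In D it was *Dkk2* (172 ± 82.7), *Dkk3* (85.2 ± 27.5), *Frzb* (8.01 ± 7.26), *Sfrp2* (7.34 ± 15.2), *Wif1* (5.1 ± 6.93), *Sfrp1* (2.18 ± 3.08), *Sfrp4* (1.34 ± 2.75) and *Sfrp5*. There *Dkk3* lay wholly above *Frzb*, and all other neighbours overlapped. Every gene below *Frzb* in D had libraries with no read at all.

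**Figure D2:**
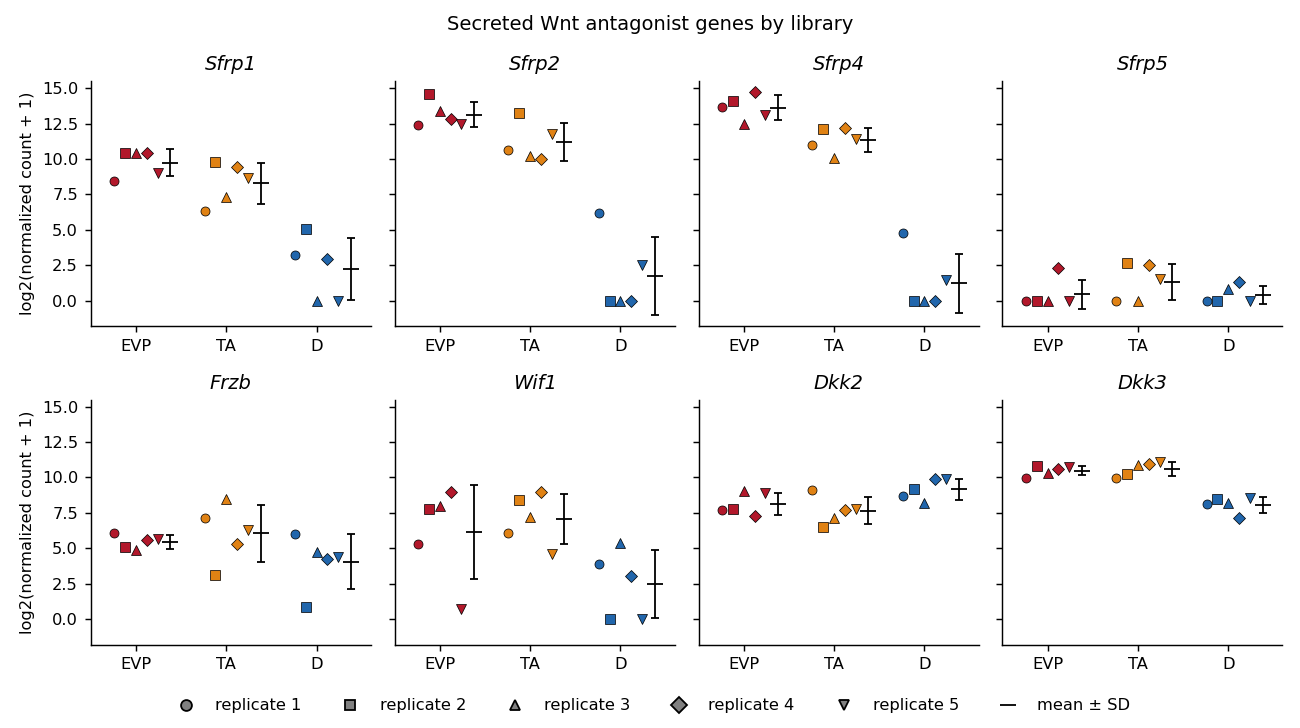
Each point is the log2(normalized count + 1) of 1 gene in 1 library of EVP, TA or D, with the replicate number given by the shape of the point, and the bars are the mean ± SD of 5 libraries. *Sfrp1*, *Sfrp2*, *Sfrp4* and *Dkk3* lay higher in every EVP and TA library than in any D library, and *Dkk2* had its highest mean in D.

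Among the Frizzled-related genes, *Sfrp2* (ENSMUSG00000027996, chromosome 3 from 83766321 to 83774316, plus strand, 2153 bases of exon) had the highest mean level per kb in EVP and TA. Positions of this and the other genes are on GRCm38. Its levels were 5446, 24706, 10480.3, 7219 and 5661 normalized counts in EVP replicates 1 to 5, 1591, 9562, 1165, 1027 and 3497 in TA and 74.1, 0, 0, 0 and 4.83 in D. EVP replicate 2 and TA replicate 2 were the highest of their populations, and 3 D libraries had no read. The means were 10703 ± 8083 in EVP, 3368 ± 3601 in TA and 15.8 ± 32.7 in D (SD, n = 5), with 1820.1 in TA without replicate 2 and 1.21 in D without replicate 1. EVP was thus 678-fold above D and 3.18-fold above TA, and no D library overlapped with EVP or TA. EVP and TA did overlap. The gene shares its locus with the antisense gene *Gm26771*, which had 10.4 to 64.0 normalized counts in EVP, 0 to 3.74 in TA and 0 to 6.86 in D, and whether strand was used in the counting is not given in the sources used here.

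*Sfrp4* (ENSMUSG00000021319, chromosome 13 from 19623104 to 19632994, plus strand, 4179 bases of exon) had 12787, 17751, 5626, 26742 and 8569.9 normalized counts in EVP replicates 1 to 5, 2039, 4334, 1096, 4658 and 2719 in TA and 26.1, 0, 0, 0 and 1.81 in D. The 3 populations separated fully, and 3 of the 5 D libraries had no read. No other gene among the 8 was higher in every EVP library than in every TA library. Mean levels were 14295 ± 8323 in EVP, 2969 ± 1513 in TA and 5.58 ± 11.5 in D, the last falling to 0.453 without D replicate 1. EVP stood 4.81-fold above TA, and the fitted log2 difference between EVP and D was 12.35 (standard error 0.75) on the log2(normalized count + 1) scale. With a pseudocount of 8 in place of 1 that difference was 10.12, so its size depends on how values near 0 are treated.

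*Sfrp1* (ENSMUSG00000031548, chromosome 8 from 23411502 to 23449632, plus strand, 4372 bases of exon) had 348, 1340.3, 1371, 1357 and 508 normalized counts in EVP, 79.3, 863, 158, 696 and 397 in TA and 8.24, 32.7, 0, 6.76 and 0 in D. Replicates 1 and 5 were the lowest in EVP, and TA ranged over a broad span that overlapped with EVP. Its means were 985 ± 512, 439 ± 338 and 9.53 ± 13.5 in EVP, TA and D, and the D mean was 3.75 without D replicate 2. EVP was 103-fold and TA 46.0-fold above D, while EVP exceeded TA by a factor of 2.24.

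*Sfrp1*, *Sfrp2* and *Sfrp4* took a like position in TA when the fitted means of EVP and D were set to 0 and 1. TA lay at 0.192 for *Sfrp1*, 0.173 for *Sfrp2* and 0.182 for *Sfrp4*, so for each of them TA was nearer to EVP than to D on the log2 scale. For *Frzb*, *Wif1*, *Dkk2* and *Dkk3* the fitted TA mean fell outside the span between EVP and D.

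*Frzb* (ENSMUSG00000027004, chromosome 2 from 80411970 to 80447625, minus strand, 3237 bases of exon), also called *Sfrp3*, differed from the other expressed Frizzled-related genes. It had 66.7, 32.7, 28.6, 46.4 and 50.5 normalized counts in EVP, 143, 7.91, 350.5, 39.2 and 77.8 in TA and 64.5, 0.816, 25.8, 18.0 and 20.5 in D. All 3 populations overlapped. TA replicate 3 was the highest library, and TA replicate 2, with 7.91 normalized counts, lay below every library but D replicate 2. The means were 45 ± 15.2 in EVP, 124 ± 136 in TA and 25.9 ± 23.5 in D, with 67.0 in TA without replicate 3 and 16.3 in D without replicate 1. Replicate 1 was the highest library in EVP and D and the next to highest in TA, and replicate 1 also had the highest share of olfactory receptor genes with reads in each population (98.3% in EVP, 81.6% in TA and 89.2% in D), with 71.0% in TA replicate 3. The part of this background in the level of *Frzb* was not tested. The fitted difference between EVP and D was 1.40 (standard error 0.93) and turned to -0.12 under quantile normalization, so no direction is given for it.

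*Sfrp5* (ENSMUSG00000018822, chromosome 19 from 42197971 to 42202252, minus strand, 1900 bases of exon) was close to the limit of detection in all libraries. It had reads in 1 EVP, 3 TA and 2 D libraries, with at most 5 reads in EVP, 6 in TA and 2 in D. The levels were 0, 0, 0, 4.0 and 0 normalized counts in EVP, 0, 5.27, 0, 4.7 and 1.87 in TA and 0, 0, 0.782, 1.5 and 0 in D. No difference was detectable at this depth, and the gene fell below the minimum mean of 5 normalized counts used for the fit.

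*Wif1* (ENSMUSG00000020218, chromosome 10 from 121033960 to 121100650, plus strand, 2427 bases of exon) spread widely between libraries of 1 population. Its levels were 38.6, 217, 255, 509 and 0.691 normalized counts in EVP replicates 1 to 5, 67.2, 337, 151, 492 and 23.0 in TA and 13.7, 0, 40.6, 7.51 and 0 in D. In both EVP and TA, replicate 4 was the highest and replicate 5 the lowest, and EVP replicates 1 and 5 lay within the range of D. D replicate 3 was above TA replicate 5. Means were 204 ± 203 in EVP, 214 ± 196 in TA and 12.4 ± 16.8 in D, with 128 in EVP without replicate 4 and 5.31 in D without replicate 3. EVP and TA means differed by a factor of 1.05 and lay 16.5-fold and 17.3-fold above D. The fitted difference of EVP from TA was -0.89 (standard error 1.41) and turned to 0.46 without EVP replicate 5.

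**Figure D3:**
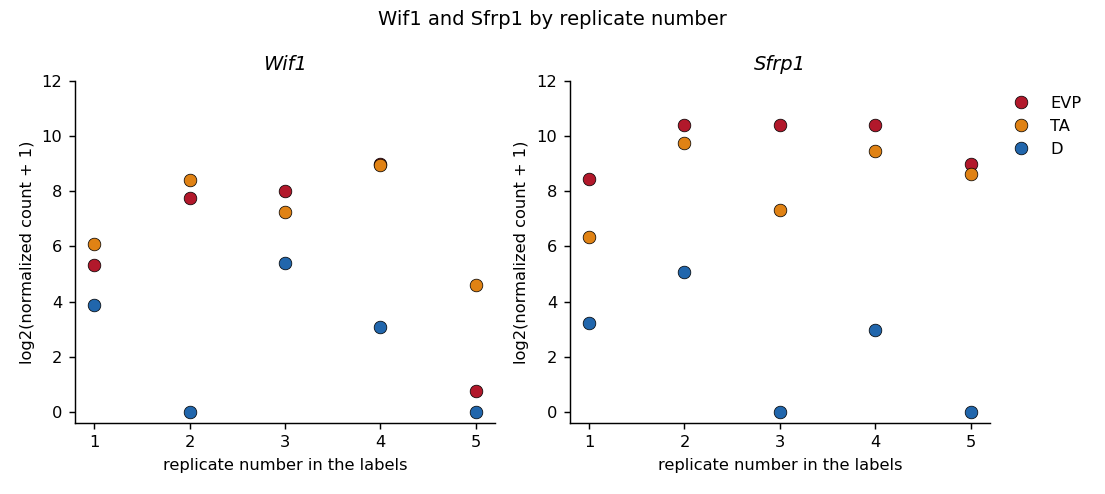
The log2(normalized count + 1) of *Wif1* (left) and *Sfrp1* (right) is plotted against the replicate number in the labels, with 1 point for each library and colors for EVP, TA and D. *Wif1* was highest in replicate 4 and lowest in replicate 5 in both EVP and TA, while for *Sfrp1* replicate 1 was lowest in both. The numbers carry no order.

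Of the Dickkopf genes, *Dkk3* (ENSMUSG00000030772, chromosome 7 from 112116017 to 112159057, minus strand, 3359 bases of exon) had the smallest spread of the 8 genes in EVP relative to its mean. It had 1022, 1752, 1252, 1569 and 1687 normalized counts in EVP, 982, 1232, 1854, 1985 and 2189 in TA and 277, 349, 288, 139 and 378 in D. EVP and TA overlapped, and every D library lay below both. Means were 1456 ± 309.9 in EVP, 1649 ± 516 in TA and 286 ± 92.4 in D, so EVP was 5.09-fold and TA 5.76-fold above D. Unlike *Sfrp1*, *Sfrp2* and *Sfrp4*, it had at least 139 normalized counts in each D library, well above the limit of detection.

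*Dkk2* (ENSMUSG00000028031, chromosome 3 from 132085292 to 132180304, plus strand, 3705 bases of exon) ran the other way, with its highest mean in D. It had 409, 585, 291, 951 and 957 normalized counts in D, 204, 216, 519, 153 and 472 in EVP and 549.8, 92.3, 139.5, 205 and 219 in TA. The highest 3 libraries were of D, but D replicates 1 and 3 lay within the range of EVP, and TA replicate 1 reached 549.8. The means were 639 ± 306 in D, 313 ± 169 in EVP and 241 ± 180.0 in TA, with D 2.04-fold above EVP and 2.65-fold above TA.

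The following counts describe the same contrasts that were known when the genes were chosen, so they carry no test of their own. The fit by limma across 25549 genes covered 7 of the 8 genes, all but *Sfrp5*. Between EVP and D, 4 of the 7 passed an adjusted p of 0.05, *Sfrp4*, *Sfrp2*, *Sfrp1* and *Dkk3*, all higher in EVP, beside 11.6% of all genes tested (19.0% in either direction). The same 4 were higher in every EVP than in every D library, as were 10.2% of all genes. Between TA and D, 6 passed, with *Sfrp4*, *Sfrp2*, *Sfrp1*, *Wif1* and *Dkk3* higher in TA (8.21% of all genes) and *Dkk2* higher in D (4.31%), 12.5% passing in either direction. The libraries of 4 of them, *Sfrp1*, *Sfrp2*, *Sfrp4* and *Dkk3*, lay wholly above D, beside 5.56% of all genes. The calls of *Wif1* and *Dkk2* between TA and D were lost under quantile normalization, with edgeR and with no minimum mean, that of *Wif1* also without any one of TA replicates 2, 3 and 4 and D replicates 2, 4 and 5, and that of *Dkk2* without any one of EVP replicate 2, TA replicates 2 to 5 and D replicates 2, 4 and 5. *Wif1* passed between EVP and D with the replicate block, with DESeq2, without EVP replicate 5 and without D replicate 3. *Frzb* passed between TA and D with DESeq2 and without TA replicate 2. *Dkk2* also missed the threshold between TA and D with the same total per library, in a fit of only TA and D and with the replicate block. *Sfrp1*, *Sfrp2*, *Sfrp4* and *Dkk3* passed in both comparisons under every alternative run. Both comparisons share the D libraries.

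Between EVP and TA, limma called 0 of the 7, beside 3.5% of all genes. At an unadjusted p under 0.05 the count was 1, *Sfrp4*, and edgeR and DESeq2 each called 0 and had 1 at an unadjusted p under 0.05. *Sfrp4* was also the only gene of the 8 with every EVP library above every TA library, beside 2.7% of all genes. It passed the adjusted threshold with a pseudocount of 8, in a fit of only EVP and TA, and without D replicate 1. The median log2 difference over the 7 genes was 3.70 between EVP and D, 0.47 between EVP and TA and 4.58 between TA and D, beside 0.46, 0.085 and 0.24 over all genes tested. The median over all genes between EVP and D was -0.049 under quantile normalization.

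Levels of *Sfrp2* and *Sfrp4* went together across libraries more closely than those of other pairs of the 7 genes. Over the 15 libraries, which share their populations and differ in depth, Pearson's r of their log2 levels was 0.983, and 0.818 after the population means were removed. For *Sfrp1* the corresponding values were 0.909 and 0.216 with *Sfrp4*, and 0.890 and 0.181 with *Sfrp2*. *Dkk2* and *Wif1* had r = -0.718 (-0.517 with the means removed), and *Frzb* and *Sfrp1* had 0.177 (-0.647). The ratio of *Sfrp2* to *Sfrp4* per kb ranged from 0.524 to 3.62 in EVP and from 0.428 to 4.28 in TA, and replicate 4 had the lowest ratio in both populations.

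Among the other 25492 genes with 1 symbol each in the fit, those most alike in pattern were ranked by Pearson's r over the same 15 libraries, as a description. *Sfrp4* was nearest to *Adamts15*, which encodes a secreted protease (r = 0.995), *Spon2*, an extracellular matrix gene (0.995), and *Aldh1a1*, a retinaldehyde dehydrogenase gene (0.990). *Sfrp2* was nearest to *Gabra3* (0.991), *Adamts15* (0.989) and *L3hypdh* (0.988). For *Sfrp1* the nearest were *Slit3*, which encodes a secreted guidance protein (0.979), *Tnxb*, which encodes a matrix protein (0.967), and *Tpbg*, itself on the list of other Wnt inhibitors (0.966). After the population means were removed, *Slit3* and *Sfrp1* had r = 0.936. The other genes named in this paragraph had 0.771 to 0.919 with their antagonist by that measure. All were picked by an r that includes the spread within populations, so high values are partly built in. *Dkk3* was nearest to *Tmem9* (0.956), *Igsf3* (0.954) and *B4galnt1* (0.949), and *Wif1* to *Msx2*, a homeobox gene (0.933), *Cyp11a1* (0.876) and *Ap1m2* (0.874). The values were lower for *Frzb*, with *Cd8b1* at 0.898, *Dcdc2a* at 0.891 and *Myo1h* at 0.890, and for *Dkk2*, with *Xpnpep1* at 0.858, *Gm37805* at 0.856 and *Oxa1l* at 0.855.

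The sum of the fibroblast markers and the summed level of the antagonists were both lowest in D and had their highest medians in EVP. *Sfrp2* and *Sfrp4* made up most of the antagonist sum in EVP and TA, and not every gene followed it. The mean of *Dkk2* was highest in D, and those of *Frzb*, *Wif1* and *Dkk3* were highest in TA. All 10 fibroblast markers were higher in EVP than in D without overlap of libraries, beside 10.2% of all genes. The same 10 were higher in TA than in D without overlap, beside 5.56%. Between EVP and TA, 5 of 10 passed the limma threshold, all higher in EVP, beside 398 of the 25549 genes tested. Within TA, replicates 2 and 5 had the highest sums of fibroblast markers (518743 and 610205 normalized counts). The same libraries had the highest summed antagonist levels (6211 and 3111 per kb), but in the opposite order. In D, the fibroblast sums were 4090 in replicate 1 and 4128 in replicate 5, beside 1029 to 1848 in the other libraries. Replicates 1 and 5 were also the only D libraries with reads of *Sfrp2* or *Sfrp4*. Of the 10 markers, 3 had no read in some D library, *Pdgfra* and *Pi16* in replicate 3 and *Fap* in replicate 4. The part of such cells in the levels of the antagonists was not tested, and in sorted bulk samples fewer cells of a type and less RNA per cell cannot be told apart.

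Keratinocyte markers (5 genes) summed to 1031 to 5982 normalized counts in EVP, 1250 to 66886 in TA and 66.1 to 1782 in D. The highest D value was in replicate 1, the D library with the most *Sfrp2* and *Sfrp4*, where 89.2% of olfactory receptor genes had reads. D replicate 5, which also had reads of *Sfrp2* and *Sfrp4*, had a keratinocyte sum of 70.1. In D replicate 4, *Krt14* and *Krt1* had no read, as did *Krt1* in D replicate 3. Mural markers (8 genes) had sums of 5163 to 28611 in EVP, 5431 to 144686 in TA and 5021 to 10753 in D. Melanoma markers (7 genes) summed to 29776 to 67410 in EVP, 69334 to 176152 in TA and 18213 to 47920 in D, with the highest value in TA replicate 3, where *Frzb* was highest too. Leukocyte markers (6 genes) ranged from 1671 to 8458 in EVP, 5050 to 29675 in TA and 2504 to 7927 in D, with *Cd3e* at 0 in EVP replicate 2 and D replicates 3 and 4. The sums of these 4 lists overlapped between EVP and D, but single markers differed. Higher in EVP with limma were 3 of 5 keratinocyte, 1 of 7 melanoma and 1 of 6 leukocyte markers, beside 11.6% of all genes. Of 8 mural markers, 2 were higher in EVP and 2 higher in D, the latter beside 1907 of the 25549 genes tested. Between TA and D, all 7 melanoma and all 5 keratinocyte markers passed the limma threshold, each higher in TA. So did 4 of 8 mural markers and 2 of 6 leukocyte markers, beside 8.21% of all genes. The part of these markers in the results was not tested.

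**Figure D4:**
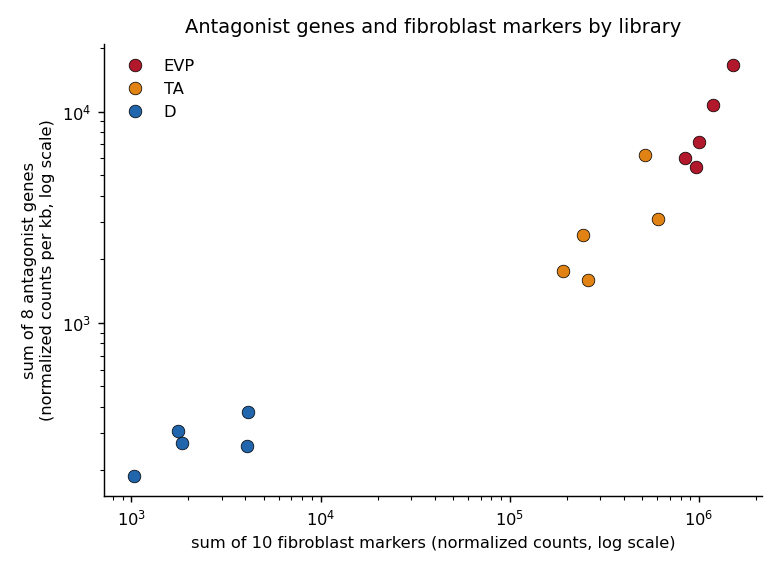
The summed level of the 8 antagonist genes, in normalized counts per kb, is plotted against the summed normalized counts of 10 fibroblast markers, both on log axes, with 1 point per library. D libraries lay at 1029 to 4128 on the horizontal axis, TA at 192001 to 610205 and EVP at 844125 to 1501645, and the antagonist sum was lowest in D.

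Other genes of the pathway, which did not enter the choice of the antagonists, were taken from 6 lists of 83 genes in all, of which 72 could be tested. These lists were also chosen with earlier results of these data known. From the same cells, the paper had reported *Wnt2*, *Wnt5a*, *Wnt9a*, *Wnt10b*, *Wnt11* and *Wnt16* as higher in EVP. The calls and p-values of the lists are thus a description and no independent test. Between EVP and D, 37 of the 72 passed the limma threshold, 31 higher in EVP and 6 higher in D, beside 19.0% of all genes in either direction. Between TA and D, 25 passed (21 higher in TA and 4 in D, beside 12.5%), and between EVP and TA, 6 passed (3 in each direction, beside 3.5%). The median log2 difference of the 72 genes was 1.66, 1.16 and 0.50 in these comparisons, beside 0.46, 0.24 and 0.085 over all genes tested. The counts of each list below stand beside the same shares of all genes. By direction, these were 11.6% higher in EVP than in D, 8.21% higher in TA than in D and 4.31% higher in D than in TA. The calls with D above EVP stand beside 1907 of the 25549 genes tested.

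Among other Wnt inhibitors, 6 of 13 tested were higher in EVP than in D and none was lower, 3 were higher in TA than in D, and 0 passed between EVP and TA with limma, where 3 had an unadjusted p under 0.05 (edgeR 0 and 1, DESeq2 0 and 3). The call of *Rnf43*, 1 of the 6, was lost in 16 of 26 alternatives. *Tpbg*, a membrane inhibitor of Wnt signaling, had 1311 ± 337 normalized counts in EVP, 496 ± 287 in TA and 29.3 ± 37.6 in D (SD, n = 5), the last being 13.3 without D replicate 1, with EVP above D by 6.31 (standard error 0.68, limma adjusted p = 2.2e-06) on the log2 scale. *Draxin*, which encodes a secreted inhibitor also known in axon guidance, differed by 4.89 (standard error 0.97, limma adjusted p = 0.00125) at a lower level of 53.3 ± 23.5 in EVP and 1.53 ± 3.0 in D, where the mean was 0.195 without D replicate 1. Its call between TA and D was lost in 7 of 26 alternatives. *Trabd2b*, a gene for a membrane protease that acts on Wnt proteins, had 188 ± 101 in EVP and 52.5 ± 16.4 in D, a difference of 1.74 (standard error 0.46, limma adjusted p = 0.011), which was lost under quantile normalization (highest adjusted p = 0.425). *Dkk1*, *Dkk4*, *Sost*, *Notum* and *Shisa3* were below the minimum mean and were not tested.

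Of 15 Wnt ligand genes tested, 8 were higher in EVP than in D and 8 higher in TA than in D, with none lower. *Wnt2* had 1429 ± 326 normalized counts in EVP, 294 ± 216 in TA and 1.52 ± 2.2 in D (0.686 without D replicate 5), and EVP exceeded D by 9.56 (standard error 0.81, limma adjusted p = 1.5e-07) on the log2 scale, with D near the limit of detection. *Wnt11* rose from 0.30 ± 0.672 in D, where replicate 4 alone had reads, to 260.3 ± 60.3 in EVP, a difference of 7.73 (standard error 0.43, limma adjusted p = 1.1e-09), and *Wnt16* by 7.47 (standard error 0.60, limma adjusted p = 8.4e-08). *Wnt5a*, known mainly for signaling without β-catenin, differed by 4.89 (standard error 0.58, limma adjusted p = 6.3e-06). *Wnt10a* had its highest mean in TA, with 249 ± 296 normalized counts beside 22.0 ± 20.7 in EVP. Without replicate 2 of each, which was the highest library in both, the means were 125 and 13.5, and the libraries of EVP and TA overlapped (limma adjusted p = 0.113). TA exceeded D by 6.14 (standard error 0.99, limma adjusted p = 4.2e-04) on the log2 scale. The calls of *Wnt5b* and *Wnt10a* between EVP and D were lost in 14 and 11 of 26 alternatives, and those of *Wnt3* and *Wnt10b* between TA and D in 7 and 10. Between EVP and TA limma called 0 ligand genes, with 5 at an unadjusted p under 0.05 (edgeR 0 and 3, DESeq2 3 called).

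All 16 receptor genes could be tested, and 12 passed between EVP and D, 9 higher in EVP and 3 (*Fzd4*, *Lrp5* and *Ptk7*) higher in D. *Ror2* and *Ror1*, receptors for Wnt5a, were higher in EVP by 7.18 (standard error 0.86, limma adjusted p = 7.2e-06) and 6.24 (standard error 0.98, limma adjusted p = 1.3e-04). The Frizzled genes *Fzd2* and *Fzd1* were higher by 5.90 (standard error 0.83, limma adjusted p = 4.0e-05) and 5.32 (standard error 0.55, limma adjusted p = 1.5e-06). The calls of *Lrp6* and *Lrp5* between EVP and D were lost in 14 and 11 of 26 alternatives, that of *Fzd3* under quantile normalization and with edgeR, and that of *Fzd10* with edgeR. Between TA and D 7 receptor genes passed, 6 higher in TA and *Fzd4* higher in D. Of the 6, *Fzd1* and *Ror2* passed in all 26 alternatives. The calls of *Fzd2*, *Fzd3*, *Fzd7* and *Ror1* were lost under quantile normalization, that of *Fzd2* also without replicate 1 of every population, and that of *Fzd3* also with edgeR, with DESeq2 and without TA replicate 2 or D replicate 3, 4 or 5. Between EVP and TA 1 passed, *Ryk*, whose call was lost in 5 alternatives, without EVP replicate 2, EVP replicate 3 or TA replicate 4, with the same total per library and without replicate 1 of every population (highest adjusted p 0.0867).

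Of 6 tested R-spondin and Lgr genes, which raise the response to Wnt, 3 were higher in EVP than in D and 2 higher in TA than in D. *Rspo3* differed between EVP and D by 5.25 (standard error 1.32, limma adjusted p = 0.00809), with a wide spread in EVP (131 ± 138 normalized counts, and a mean of 75.9 without EVP replicate 1), and *Lgr5* by 3.94 (standard error 0.82, limma adjusted p = 0.00188). The call of *Lgr6* between TA and D was lost in 6 of 26 alternatives. Between EVP and TA limma called 0, with 1 at an unadjusted p under 0.05 (edgeR 0 and 0, DESeq2 0 and 1).

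Wnt target genes moved in both directions. Of 12 tested, 5 were higher in EVP and 2 higher in D, 2 in each direction passed between TA and D, and 3 passed between EVP and TA. The lists share genes. Of the 5, *Rnf43* and *Znrf3* were also among the other Wnt inhibitors and *Lgr5* among the R-spondin and Lgr genes. The calls of *Nkd1* and *Rnf43* between EVP and D were lost in 6 and 16 of 26 alternatives. *Ccnd1*, which encodes cyclin D1, had 791 ± 278 normalized counts in EVP, 3651 ± 2013 in TA and 7941 ± 2360.4 in D, and EVP minus D came to -3.34 (standard error 0.32, limma adjusted p = 5.8e-07) on the log2 scale. *Bambi*, a gene for a decoy receptor of the TGF-β family, had 374 ± 79.7 in EVP, 1287 ± 712 in TA and 4211 ± 1099 in D. Its log2 difference was -3.48 (standard error 0.36, limma adjusted p = 1.3e-06) between EVP and D. *Axin2*, often read as a gene induced by canonical Wnt signaling, had 24.5 ± 19.6 normalized counts in EVP, 11.5 ± 4.87 in TA and 6.72 ± 9.75 in D, with 16.2 in EVP without replicate 4 and 2.56 in D without replicate 1. Its differences were 2.46 (standard error 0.89, limma adjusted p = 0.0671) between EVP and D, 0.89 (standard error 0.89, limma adjusted p = 0.779) between EVP and TA and 1.57 (standard error 0.89, limma adjusted p = 0.331) between TA and D, none of which passed. The first of these passed without D replicate 1 (limma adjusted p = 0.0123) and without replicate 1 of every population (limma adjusted p = 0.00921).

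In the β-catenin destruction complex and TCF list, 4 of 14 genes passed between EVP and D, beside 19.0% of all genes. The median log2 difference of the list was 0.27, below the 0.46 of all genes tested. *Ctnnb1*, the gene for β-catenin, was higher in D (7075 ± 1079.5 normalized counts) than in EVP (2299.6 ± 328), with a log2 difference of -1.62 (standard error 0.16, limma adjusted p = 8.5e-07). *Bcl9*, which encodes a cofactor of β-catenin, and *Dvl2*, a Dishevelled gene, were higher in EVP by 2.62 (standard error 0.50, limma adjusted p = 8.4e-04) and 1.85 (standard error 0.35, limma adjusted p = 8.2e-04). The call of *Dvl2* missed the threshold under quantile normalization (limma adjusted p = 0.0507). Between TA and D 3 genes passed, beside 12.5% of all genes. Between EVP and TA 2 passed, beside 3.5%, and these were *Tcf7l1* and *Ctnnb1*, whose calls were lost in 17 and 15 of 26 alternatives.

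The 6 calls between EVP and TA were *Ryk*, *Tcf7l1* and *Myc*, higher in EVP, and *Ccnd1*, *Bambi* and *Ctnnb1*, higher in TA. *Ccnd1*, with a log2 difference of -2.14 (standard error 0.32, limma adjusted p = 0.0022), passed in all 26 alternatives, while the calls of *Bambi* and *Myc* were lost in 5 and 7. The count fell to 1 without EVP replicate 3, to 2 without EVP replicate 2 or TA replicate 3 and to 3 without EVP replicate 4 or TA replicate 4, and it was 1 without replicate 1 of every population.

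**Figure D5:**
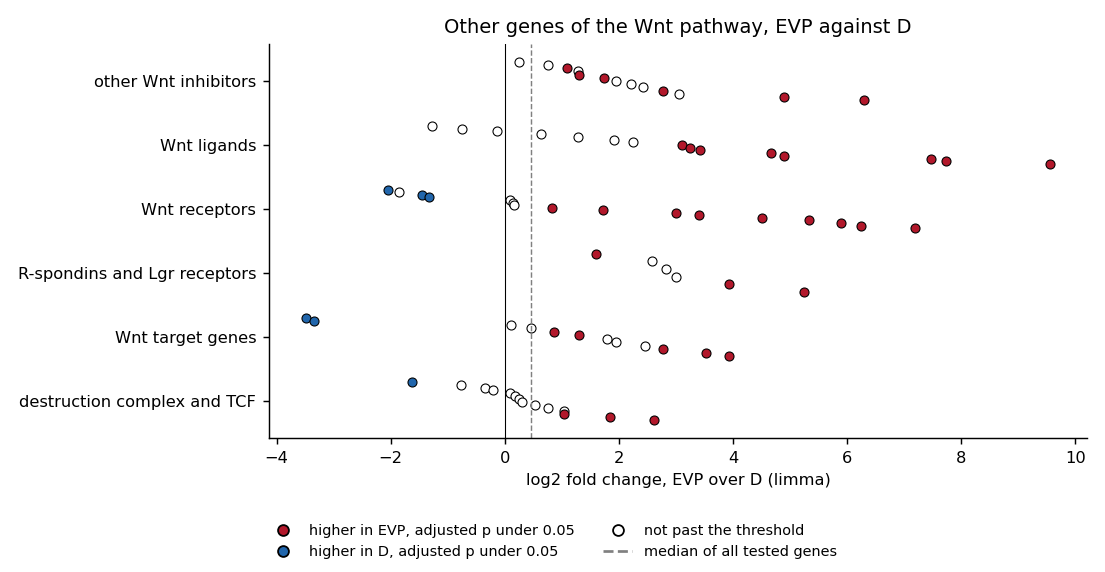
Each point is 1 gene of the 6 other Wnt pathway lists, placed by its log2 difference between EVP and D from limma, with red for genes higher in EVP and blue for genes higher in D at an adjusted p under 0.05 and white for the rest. The dashed line is the median of all tested genes (0.46), and 31 genes passed to the right and 6 to the left.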

How the data were processed

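Bulk RNA was sequenced in 15 libraries, 5 each of EVP, TA and D cells. The authors used a modified Smart-Seq2 protocol, mapped reads to GRCm38 with STAR 2.5.3a, counted them per gene and normalized them with DESeq2 1.10.1. The deposited normalized counts are signal values, that is counts per gene over a size factor for each library. Columns of the authors' own comparisons (means, log2 fold changes, scores and p-values) were not used. All values were whole multiples of 1 read in every library (tolerance 1e-06), and 6716 genes had no read. File coordinates of the 8 genes were the same as in GENCODE M21, whose exons gave lengths.

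Log2(normalized count + 1) was fitted, for genes averaging 5 normalized counts or more, with limma 3.58.1 in R 4.3.3 (15 libraries, 1 coefficient per population, trend, two-sided), with Benjamini-Hochberg adjustment over all genes and a threshold of 0.05. Values after ± are SDs, and each fold divides one mean normalized count by another. Alternatives were other pseudocounts, minimum means and scalings, fits of 2 populations, a replicate block, edgeR 4.0.16 and DESeq2 1.42.0 on whole reads, and leaving out libraries. The fit was tested on simulated data. The 8 genes and all lists were chosen with earlier results of these data known. Up to 4 genes per pathway list past the threshold, by size, and *Axin2* were eligible to be named, as were list members and the 3 genes most alike to each antagonist. *Itgam*, whose symbol is shared, was left out of the leukocyte list, and the level of 1 marker of that list is not reported here. Without molecular identifiers, limits of detection describe counting error alone. Promoter windows came from RefSeq.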

Additional observations from a re-analysis of the deposited data

Results flagged for a closer look

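The level of *Sfrp5* in EVP replicate 4 was 4.0 normalized counts, from 5 reads, while the other 4 EVP libraries had none, so its gap to the nearest library spanned the whole range of its population. With 4 libraries at 0, any read in the fifth gives that gap, and the level lies near the limit of detection, so it does not set the library apart beyond counting error. Of 24 groups of 5 libraries examined on the log2 scale (8 genes in 3 populations) it was the only one with such a gap. On normalized counts 7 of the 24 had one, each for its highest library. These were *Sfrp1* in D replicate 2 (32.7), *Sfrp2* in EVP replicate 2 (24706), TA replicate 2 (9562) and D replicate 1 (74.1), *Sfrp4* in D replicate 1 (26.1), *Dkk2* in TA replicate 1 (549.8) and *Sfrp5* in EVP replicate 4. Chance gives about 1 in 20 for normally distributed values without ties.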

How the results depend on the processing

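Of the fitted differences of the antagonists, 541 of 546 values under the alternatives moved by less than the spread between replicates. The exceptions were *Sfrp2* between EVP and D (9.32 with a pseudocount of 8, 9.43 with DESeq2) and between TA and D (7.36 with a pseudocount of 8), and *Sfrp4* between the same populations (10.12 and 7.88 with a pseudocount of 8). Many of the 541 could not move. A difference of 2 population means stays the same under another minimum mean, a fit of 2 populations or the replicate block. It also stays the same without a library outside the comparison, and for *Sfrp1* between EVP and D it remained 7.48 in all of these. The spread was also wide, so that the change of *Frzb* between EVP and D from 1.40 to -0.12 counted as less than it. Of the named pathway genes, 99 of 1271 values fell short of the threshold and 2 newly passed it, and no called value changed sign. Genes called between EVP and TA numbered 893, but 1961 with DESeq2 and 522 without replicate 1 of every population. Pathway genes called between EVP and TA numbered 6, but 10 with a pseudocount of 8, 3 with the same total per library, 3 with only these populations in the fit and 1 without replicate 1. Between TA and D, 3199 genes were called, and 2117 under quantile normalization. The cause was not tested in these cases.

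Leaving out 1 library at a time gave 4106 to 5150 genes between EVP and D, 428 to 1209 between EVP and TA and 2403 to 3581 between TA and D, and 31 to 40, 1 to 7 and 21 to 31 pathway genes. The genes between EVP and TA numbered 428 without EVP replicate 2, 471 without EVP replicate 3 and 568 without TA replicate 3. Scaling moved the split of higher against lower genes from 2952 and 1907 to 1920 and 1983 between EVP and D (quantile), and from 398 and 495 to 240 and 716 between EVP and TA (same total). Same-numbered libraries deviated together with correlations of 0.359 to 0.689 for replicates 1, 4 and 5 and -0.136 to 0.242 for replicates 2 and 3. In 12 of 15 cases the closest library was the one of the same number, a hint of pairing from the data. For replicates 1, 4 and 5 this held in 9 of 9 cases, and 11 of all 15 correlations were above 0.1. The labels do not say what the numbers mark, so the main fit did not take them as pairs. With the replicate block, 5710, 1262 and 4047 genes were called, beside 4859, 893 and 3199 in the main fit. Pathway genes called with the block numbered 39, 7 and 29. Depth limits *Sfrp5* in all populations and *Sfrp1*, *Sfrp2*, *Sfrp4* and *Wif1* in D.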
